A study of Rattus norvegicus with 60 samples.

Results

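The contactins are cell adhesion proteins of the immunoglobulin superfamily that are held on the membrane by a lipid anchor, and the contactin-associated proteins Cntnap1 and Cntnap2 are transmembrane proteins related to the neurexins. The 8 genes described here are Cntnap2, Cntnap1 and Cntn1 to Cntn6, taken by the gene symbol that the platform's annotation gives each probe set. They are 8 of the 14217 genes to which the annotation gives probe sets of their own, and they have 10 of the 31042 probe sets analysed, 3 for Cntnap2 and 1 for each other gene. The members were chosen by their gene family, starting from the line difference of Cntnap2 in these arrays, so every difference of theirs between the lines is given below as a description, with no test. Their pattern over brain regions was not used to choose them and was tested.

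RNA was measured on 60 Affymetrix rat arrays, with 1 array for each of 5 brain regions of 12 adult rats. The 6 congenic rats belong to the NP.P line, which, as known of the study, carries a piece of chromosome 4 of the alcohol-preferring P line on the NP background. The other 6 rats belong to the NP line, bred for low alcohol preference. The regions were the accumbens, the striatum, the frontal cortex, the amygdala and the hippocampus, each with 6 congenic and 6 NP arrays. The labels name no treatment and no age beyond adult for either line, and all rats were accustomed to daily handling and dissected in the cold. The congenic line differs from NP in a whole chromosome segment, so a difference between the lines belongs to no single gene in it. Values are log2 signals of a probe set, and levels of different probe sets cannot be set against each other.

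As background, Cntnap1 (Caspr) pairs with contactin-1 on the axon at the paranodal junctions that border the nodes of Ranvier. Cntnap2 (Caspr2) pairs with contactin-2 (TAG-1) in the adjoining juxtaparanodes, where the complex gathers Shaker-type potassium channels on myelinated axons. The remaining contactins are mainly neuronal, with roles in neurite growth and in the choice of synaptic partners, as known largely from mice. Cntnap2, Cntn4, Cntn5 and Cntn6 have been studied in relation to autism and other developmental disorders in humans.

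Cntn3, Cntn6 and Cntn4 are neighbours on chromosome 4, with Chl1 between Cntn3 and Cntn6 among the measured genes, and all 3 had their lowest mean in the hippocampus. Their promoter windows are shown because these neighbours share that low region. Each window is the 250 bases before the RefSeq gene start in the GRCr8 assembly, written 5′ to 3′ on the gene's strand, with GC boxes (GGGCGG or CCGCCC) in capitals. The windows are chr4:136681912-136682161 on the minus strand for Cntn3, chr4:138911317-138911566 on the plus strand for Cntn6 and chr4:140180571-140180820 on the plus strand for Cntn4.
Cntn3: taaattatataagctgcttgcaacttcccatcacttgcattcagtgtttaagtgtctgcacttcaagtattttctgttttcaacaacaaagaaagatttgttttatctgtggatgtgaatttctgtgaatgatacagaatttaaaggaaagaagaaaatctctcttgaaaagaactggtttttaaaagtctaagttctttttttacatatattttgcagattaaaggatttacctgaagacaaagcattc
Cntn6: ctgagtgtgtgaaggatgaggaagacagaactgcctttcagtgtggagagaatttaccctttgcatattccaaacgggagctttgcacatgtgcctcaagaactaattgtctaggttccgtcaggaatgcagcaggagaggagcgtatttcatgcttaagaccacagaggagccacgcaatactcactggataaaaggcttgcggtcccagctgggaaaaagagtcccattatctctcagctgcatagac
Cntn4: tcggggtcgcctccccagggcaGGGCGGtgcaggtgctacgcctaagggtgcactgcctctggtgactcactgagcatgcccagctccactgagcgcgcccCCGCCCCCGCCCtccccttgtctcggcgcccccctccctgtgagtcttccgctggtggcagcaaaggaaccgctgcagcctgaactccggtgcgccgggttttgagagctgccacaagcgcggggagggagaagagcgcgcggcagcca
The 3 windows differ widely in base composition. G and C make up 30% of the Cntn3 window, 48% of the Cntn6 window and 70% of the Cntn4 window, against a median of 51.2% over the 33469 promoters of the table. The Cntn3 window holds 0 CpG dinucleotides, the Cntn6 window 5 and the Cntn4 window 20. The Cntn4 window holds 3 GC boxes, the other windows hold none, and 30.5% of all promoters hold at least 1. The motif TATAAA, searched on both strands, is in none of the 3 windows and in 12.9% of all promoters. These letters are a description, since the arrays measured no promoter activity.

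In all, 7 arrays stood apart from the other arrays of their labelled region. The array labelled amygdala of congenic rat 3 resembled the hippocampus most, and the hippocampus array of the same rat resembled the amygdala. The array labelled accumbens of NP rat 8 resembled the hippocampus, at a correlation of 0.65 with its profile. The hippocampus array of that rat resembled the accumbens most, but weakly, at 0.38. The amygdala array of NP rat 6 and the accumbens array of congenic rat 9 resembled their labelled region weakly, at correlations of 0.24 and 0.23 with its profile. The hippocampus array of NP rat 11 had a median correlation of 0.97 with its region, against at least 0.98 on every array not set apart. No label was changed, and results that rest on these arrays are given with and without them. Markers of the tissues were set beside the labels. The 8 measured medium spiny neuron markers of 9 listed had a median level of 12.51 in the striatum, 11.85 in the accumbens, 10.74 in the amygdala, 9.36 in the frontal cortex and 9.18 in the hippocampus. The 3 measured choroid plexus markers of 5 listed had a median level of 13.09 in the hippocampus and 8.99 to 9.90 in the other regions. The 5 cortical excitatory neuron markers had their highest median in the frontal cortex, at 10.08, followed by the striatum at 9.70, and 1 of them, Tbr1, was highest in the striatum. Single arrays went against their label, since the medium spiny neuron markers were at 8.94 on the accumbens array and 12.09 on the hippocampus array of NP rat 8.

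Of the 10 probe sets, 9 had a mean signal at or above the 40th percentile of all probe sets, 7.68, and entered the tests. The probe set of Cntn5 had a mean of 7.52 over the 60 arrays and was left out. Its region means ran between 7.40 ± 0.12 in the frontal cortex and 7.64 ± 0.14 in the striatum (SD, n = 12). Averaged over the regions, Cntn5 lay at 7.52 ± 0.07 in congenic rats and 7.52 ± 0.04 in NP rats (SD, n = 6 each). Cntn5 codes for a contactin of neurons in sensory pathways, as known from mice.

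The level of every probe set tested differed between the 5 regions in an F test of limma, at adjusted p between 5.92e-22 for Cntnap1 and 0.00610 for Cntn3. That is 9 of 9, against 93.3% of all probe sets tested, and again 9 of 9 without the 7 arrays, against 97.1%. These shares are close to the background. The span of the 5 region means was 0.85 on the log2 scale in the median over the 9, and 0.41 over all 18625 probe sets. With all arrays it was widest for Cntnap1, at 1.26, and narrowest for Cntn3, at 0.40. Without the 7 arrays the span was 1.27 for Cntnap1 and 0.59 for Cntn3, and the narrowest was 0.43, on Cntnap2 probe set 1390393_at. In bulk tissue, fewer cells of a type and less RNA per cell cannot be told apart.

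Cntnap2 was highest in the accumbens on all 3 of its probe sets. On its brightest probe set, 1390393_at, the 12 accumbens arrays ran between 11.01 and 11.98 with a median of 11.43. The medians of the other regions were 11.06 in the striatum, 11.14 in the frontal cortex, 11.19 in the amygdala and 11.11 in the hippocampus. The accumbens arrays overlapped those of every other region, and both extremes of the accumbens, NP rat 8 and congenic rat 9, are among the 7 arrays. The accumbens lay 0.35 ± 0.05 above the mean of the other 4 regions (SE, adjusted p = 4.45e-08 in limma), and 0.36 ± 0.03 without the 7 arrays. In the order of the region means, the accumbens was above the amygdala (difference 0.29 ± 0.06, adjusted p = 8.78e-05). The following neighbours, the amygdala, hippocampus, frontal cortex and striatum, did not differ from one to the next beyond their spread.

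The dimmer Cntnap2 probe sets separated the regions more widely. Probe set 1393410_at was higher in the accumbens by 0.62 ± 0.06 (adjusted p = 7.26e-13) and probe set 1393783_at by 0.61 ± 0.11 (adjusted p = 2.56e-06). These differences were 0.67 ± 0.04 and 0.85 ± 0.07 without the 7 arrays. Both were lower in the frontal cortex than in the other regions, by -0.50 ± 0.06 (adjusted p = 3.37e-10) and -0.65 ± 0.11 (adjusted p = 8.34e-07). The brightest probe set differed by -0.09 ± 0.05 there and did not pass the test (adjusted p = 0.110). The probe sets therefore disagree on the region with the lowest level, the frontal cortex on 1393410_at and 1393783_at and the striatum on 1390393_at. In the striatum the 3 probe sets were lower by -0.20 ± 0.05, -0.22 ± 0.06 and -0.29 ± 0.11 (adjusted p = 0.000304, 0.000680 and 0.0146). After quantile normalization the brightest probe set differed in the striatum by -0.10 (adjusted p = 0.0513) and no longer passed. The probe table does not say which transcripts each probe set detects.

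**Figure D1:**
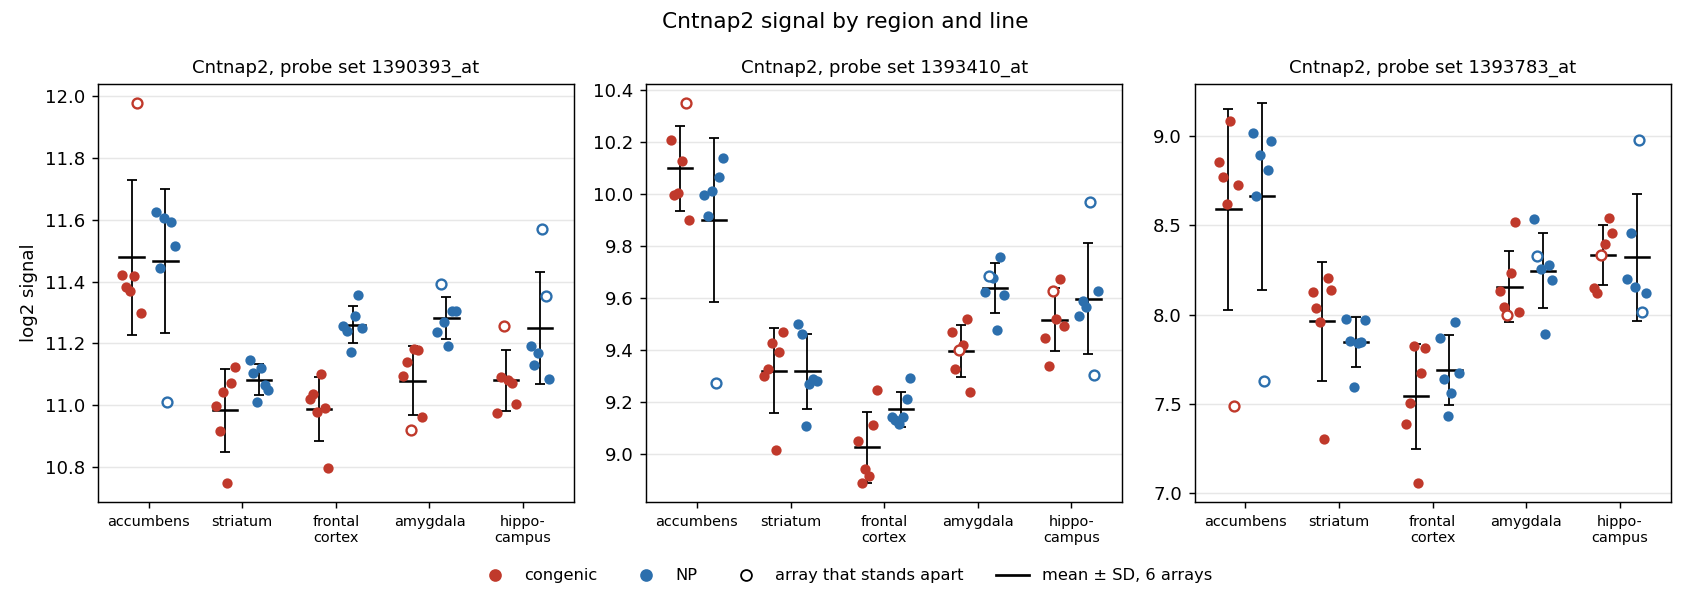
Log2 signal of the 3 Cntnap2 probe sets (vertical axis) in each region (horizontal axis), 1 point per array, with congenic arrays on the left of each pair and NP arrays on the right. Black lines are means ± SD of 6 arrays and open points are the 7 arrays that stand apart. All 3 probe sets have their highest region mean in the accumbens, at 11.47, 10.00 and 8.63.

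Cntnap1, the paranodal partner of contactin-1, was the member with the largest difference between regions. Its 12 striatum arrays ran between 10.96 and 11.51 with a median of 11.10, above every array of the other regions. The frontal cortex followed at 10.13 to 10.78 with a median of 10.30, and the medians of the hippocampus, amygdala and accumbens were 10.00, 9.97 and 9.88. The striatum lay 1.11 ± 0.05 above the mean of the other regions, a 2.16-fold difference (SE, adjusted p = 1.46e-22 in limma), and 1.14 ± 0.05 without the 7 arrays. Levels at least 2-fold higher there were called for 0.628% of all probe sets. The frontal cortex was above the hippocampus (0.27 ± 0.07, adjusted p = 0.000878), and the hippocampus, amygdala and accumbens did not differ from one to the next beyond their spread.

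The 10 measured oligodendrocyte and myelin markers of 12 listed had their highest median level in the striatum too, at 12.61. Their median was 12.57 in the hippocampus, 12.38 in the accumbens, 12.07 in the amygdala and 12.04 in the frontal cortex. The order of the remaining regions differed from that of Cntnap1, which was second in the frontal cortex and last in the accumbens. The part of these cells in the Cntnap1 result was not tested.

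Cntn1, which codes for the axonal partner of Cntnap1 and also binds receptor phosphatases and glial ligands, had another order, with its highest level in the hippocampus. Its hippocampus arrays ran between 10.36 and 11.48 with a median of 11.20. The medians were 10.85 in the amygdala, 10.62 in the frontal cortex, 10.41 in the accumbens and 10.14 in the striatum. The accumbens array of congenic rat 9 read 6.85, far under the next accumbens array at 10.20. Relative to the mean of the other regions, the hippocampus was higher by 0.65 ± 0.16 (adjusted p = 0.000574) and the striatum lower by -0.53 ± 0.16 (adjusted p = 0.00293). Those differences were 0.75 ± 0.05 and -0.64 ± 0.05 without the 7 arrays. The accumbens was lower by -0.54 ± 0.16 with all arrays and by -0.29 ± 0.05 without the 7 (adjusted p = 0.00289 and 1.28e-06 in limma). With all arrays the region means ran in the order hippocampus, amygdala, frontal cortex, striatum, accumbens. Only the step from the frontal cortex to the striatum then passed the test (adjusted p = 0.0245 in limma). The hippocampus did not differ from the amygdala (adjusted p = 0.389), nor the amygdala from the frontal cortex (0.473), nor the striatum from the accumbens (0.972). Over the 53 arrays left without the 7, each region differed from the next in the order hippocampus, amygdala, frontal cortex, accumbens, striatum, with the highest adjusted p at 0.00713.

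Cntn2, the juxtaparanodal partner of Cntnap2, was highest in the striatum and lowest in the accumbens. Its medians were 8.53 in the striatum, 8.42 in the hippocampus, 8.40 in the frontal cortex, 8.27 in the amygdala and 8.06 in the accumbens, with overlapping arrays. The striatum was higher than the mean of the other regions by 0.23 ± 0.05 (adjusted p = 5.10e-05) and the accumbens lower by -0.31 ± 0.05 (adjusted p = 5.58e-07). Cntn2 and the brightest Cntnap2 probe set thus had opposite extremes in these regions. Across the 60 arrays the brightest Cntnap2 probe set and Cntn2 correlated at Pearson r = -0.29, and at -0.50 over those 53. Cntnap1 and Cntn1 correlated at r = -0.34, and at -0.62 over the 53. These arrays share 12 animals and 5 regions, and the coefficients are a description.

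**Figure D2:**
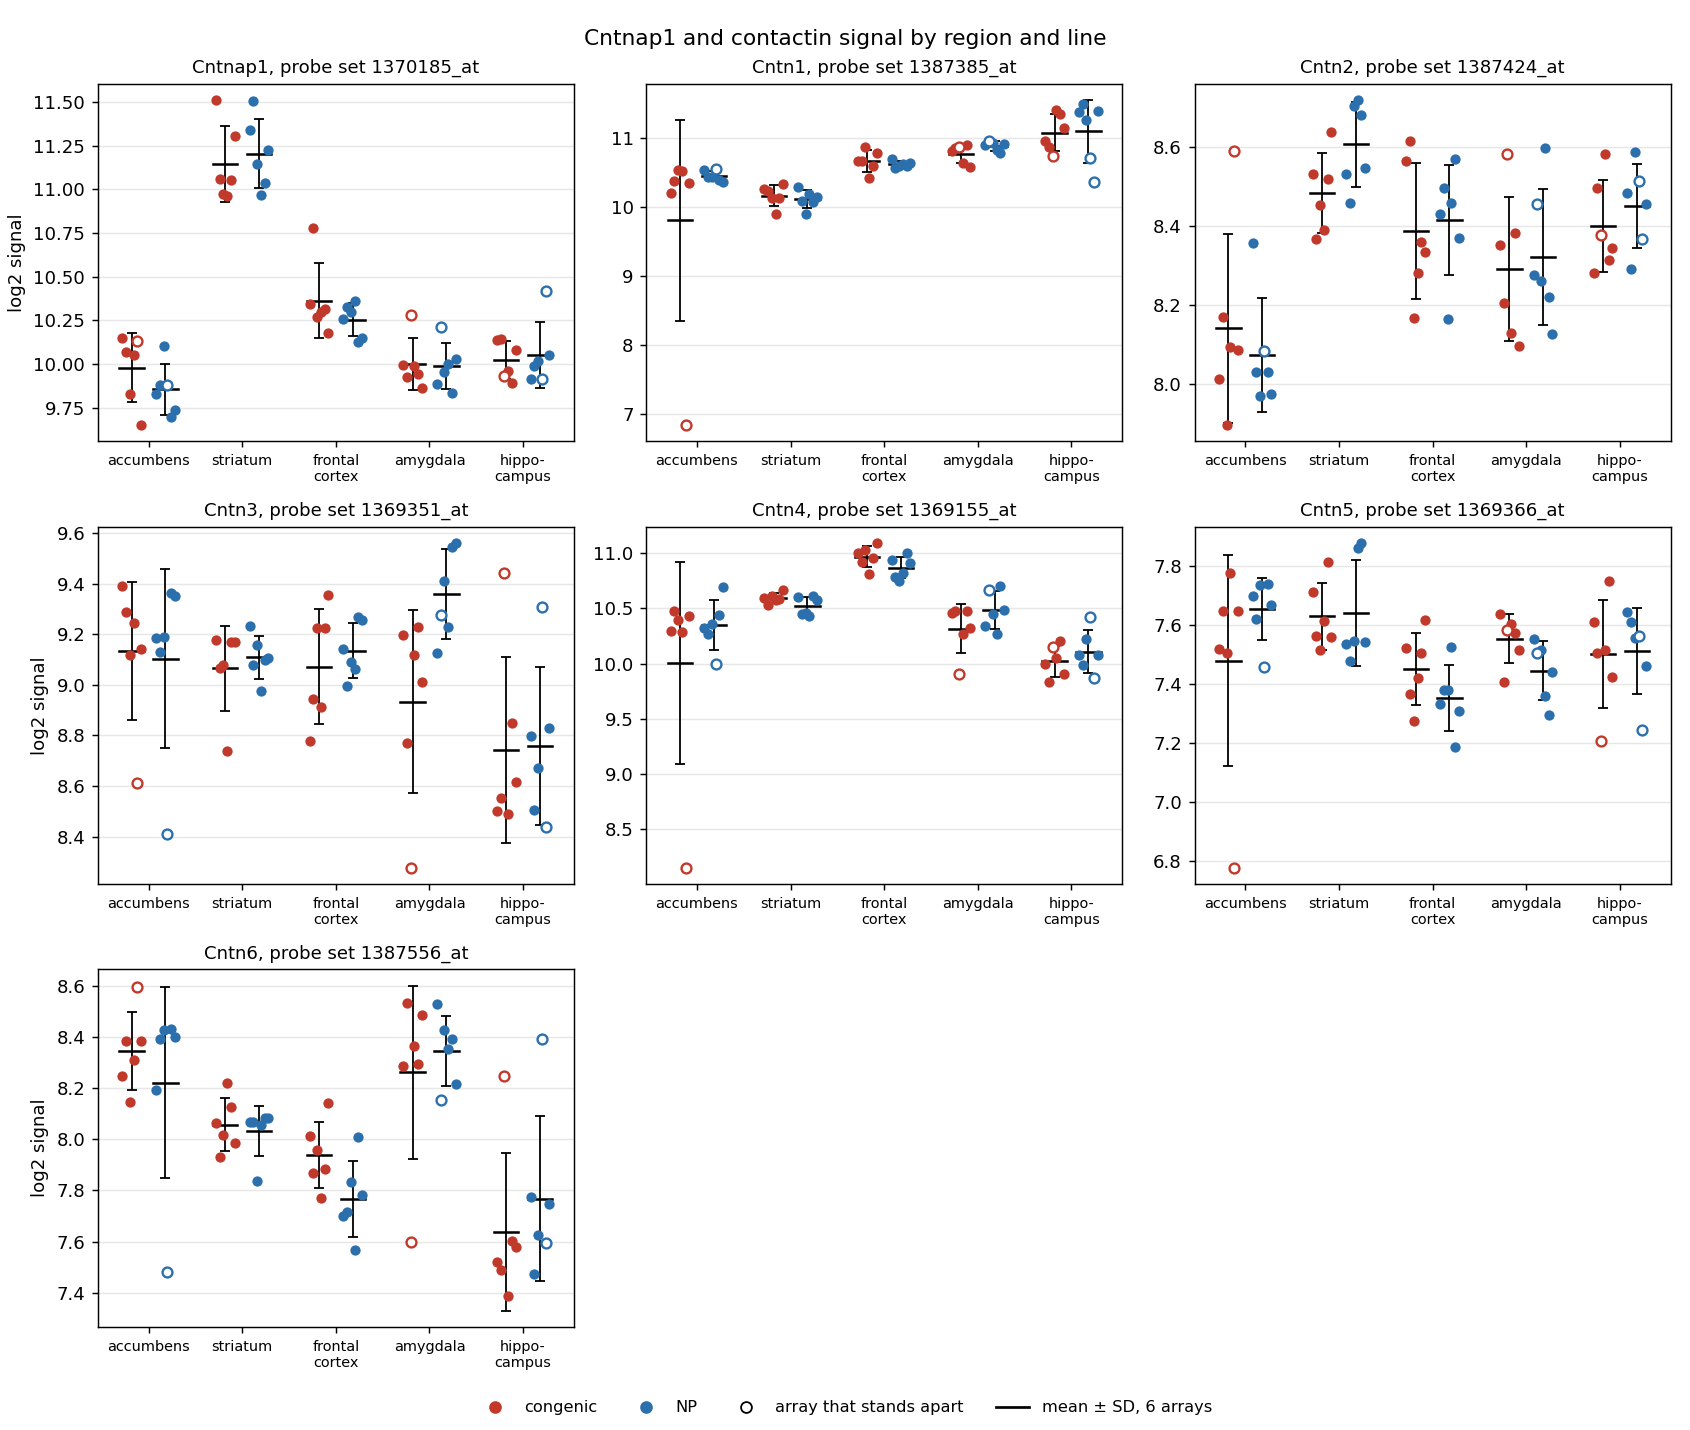
Log2 signal of Cntnap1 and the 6 contactins (vertical axes, different in each panel) by region (horizontal axis), 1 point per array, congenic on the left of each pair and NP on the right. Black lines are means ± SD of 6 arrays and open points are the 7 arrays that stand apart. Cntnap1 is highest in the striatum, Cntn1 in the hippocampus and Cntn4 in the frontal cortex, and 1 accumbens array reads 6.85 for Cntn1 and 8.15 for Cntn4.

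Cntn4, a contactin of developing axons that binds amyloid precursor protein, was highest in the frontal cortex. Its 12 frontal cortex arrays ran between 10.75 and 11.09 with a median of 10.93, above all striatum, amygdala, accumbens and hippocampus arrays. The medians of those regions were 10.58, 10.45, 10.34 and 10.06. The frontal cortex was higher than the mean of the other regions by 0.62 ± 0.10 (adjusted p = 1.68e-06) and the hippocampus lower by -0.45 ± 0.10 (adjusted p = 0.000340). The accumbens was lower by -0.31 ± 0.10 (adjusted p = 0.00950), with 1 array, that of congenic rat 9, at 8.15. That accumbens difference was -0.09 ± 0.04 without the 7 arrays (adjusted p = 0.0207 in limma), and without rat 9 it was -0.12 (adjusted p = 0.0532). After quantile normalization it was -0.18 and did not pass the test (adjusted p = 0.131). Without the 7 arrays the frontal cortex difference was 0.57 ± 0.03 and the hippocampus difference -0.53 ± 0.04.

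Cntn6, a neuronal contactin also called NB-3, was high in the amygdala and accumbens and low in the hippocampus. Its medians were 8.36 in the amygdala, 8.39 in the accumbens, 8.07 in the striatum, 7.85 in the frontal cortex and 7.60 in the hippocampus. The amygdala was higher than the mean of the other regions by 0.33 ± 0.08 (adjusted p = 0.000588) and the accumbens by 0.31 ± 0.08 (adjusted p = 0.000933). The frontal cortex was lower by -0.23 ± 0.08 (adjusted p = 0.0114) and the hippocampus by -0.42 ± 0.08 (adjusted p = 2.09e-05). Over the 53 arrays the differences were 0.43 ± 0.05 in the amygdala, 0.36 ± 0.05 in the accumbens, -0.23 ± 0.04 in the frontal cortex and -0.58 ± 0.05 in the hippocampus. The amygdala and accumbens did not differ from each other beyond their spread with all arrays (0.02 ± 0.10).

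Cntn3, a contactin also known as BIG-1 that promotes neurite growth in culture, set the hippocampus apart from the other regions. Its hippocampus arrays ran between 8.44 and 9.44 with a median of 8.64, and the other regions had medians between 9.10 and 9.21. The hippocampus was lower than the mean of the other regions by -0.36 ± 0.09 (adjusted p = 0.000610), and by -0.50 ± 0.05 without the 7 arrays. The highest 2 hippocampus values, 9.44 in congenic rat 3 and 9.31 in NP rat 8, came from arrays that stand apart. With all arrays the amygdala, accumbens, frontal cortex and striatum did not differ from one to the next. Without the 7 arrays the accumbens had the highest mean. It was then above the frontal cortex (0.14 ± 0.06, adjusted p = 0.0297) and the striatum (0.16 ± 0.06, adjusted p = 0.0185 in limma). Cntn3 and Cntn6 correlated at r = 0.63 across the 60 arrays and at 0.65 over 53, and Cntn3 and Cntn4 at 0.53 and 0.50. The third pair of these neighbours, Cntn4 and Cntn6, correlated at 0.0096 across the 60 arrays and at 0.13 over the 53.

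Counted by region, the probe sets tested were mixed in direction. The counts take Cntnap2 3 times, once for each of its probe sets. All 3 are among the 4 higher in the accumbens and among the 4 lower in the striatum. Probe sets 1393410_at and 1393783_at are among the 3 lower in the frontal cortex. In the accumbens 4 were higher and 4 lower than the mean of the other regions, against 62.4% of all probe sets called either way, 23.5% higher and 38.9% lower. In the striatum 2 were higher and 4 lower, against 69.6% of all, 26.3% higher and 43.3% lower. In the hippocampus 1 was higher and 4 lower, against 54.3% of all, 33.1% higher and 21.2% lower. In the frontal cortex 1 was higher and 3 lower, against 61.3% of all, 35.6% higher and 25.7% lower. In the amygdala 1 was higher and 1 lower, against 47.8% of all, 29.1% higher and 18.6% lower. With the 7 arrays left out, 5 of the 9 were called in the amygdala, with Cntn1 and Cntn3 (0.21 and 0.19) and Cntn2 (-0.12) added to Cntn6 and Cntnap1. Of all probe sets, 62.8% were called in the amygdala over those 53 arrays, 70.4% in the accumbens, 78.2% in the striatum, 72.4% in the frontal cortex and 64.8% in the hippocampus. Other calls gained over the 53 arrays were Cntn3 in the accumbens (0.23, adjusted p = 6.56e-05), Cntn4 in the striatum (0.11, adjusted p = 0.00193) and Cntn2 in the hippocampus (0.12, adjusted p = 0.0242). The brightest Cntnap2 probe set gained calls in the frontal cortex (-0.07, adjusted p = 0.0213) and the hippocampus (-0.10, adjusted p = 0.00823). The 7 arrays were set apart for matching their region poorly, so calls gained without them are no independent support. The thalamus and hypothalamus markers, 5 measured of 6 listed, also had their highest median in the amygdala, at 9.67, with arrays between 8.10 and 11.48. Their part in the amygdala values was not tested. Calls between pairs of regions, used above for neighbours in the order, were also counted over all probe sets. The accumbens differed from the amygdala in 58.9% of them, from the frontal cortex in 65.8%, from the hippocampus in 63.7% and from the striatum in 55.5%. The striatum differed from the amygdala in 66.7%, from the frontal cortex in 69.7% and from the hippocampus in 68.6%. The frontal cortex differed from the amygdala in 45.4% and from the hippocampus in 43.5%, and the amygdala from the hippocampus in 25.7%.

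**Figure D3:**
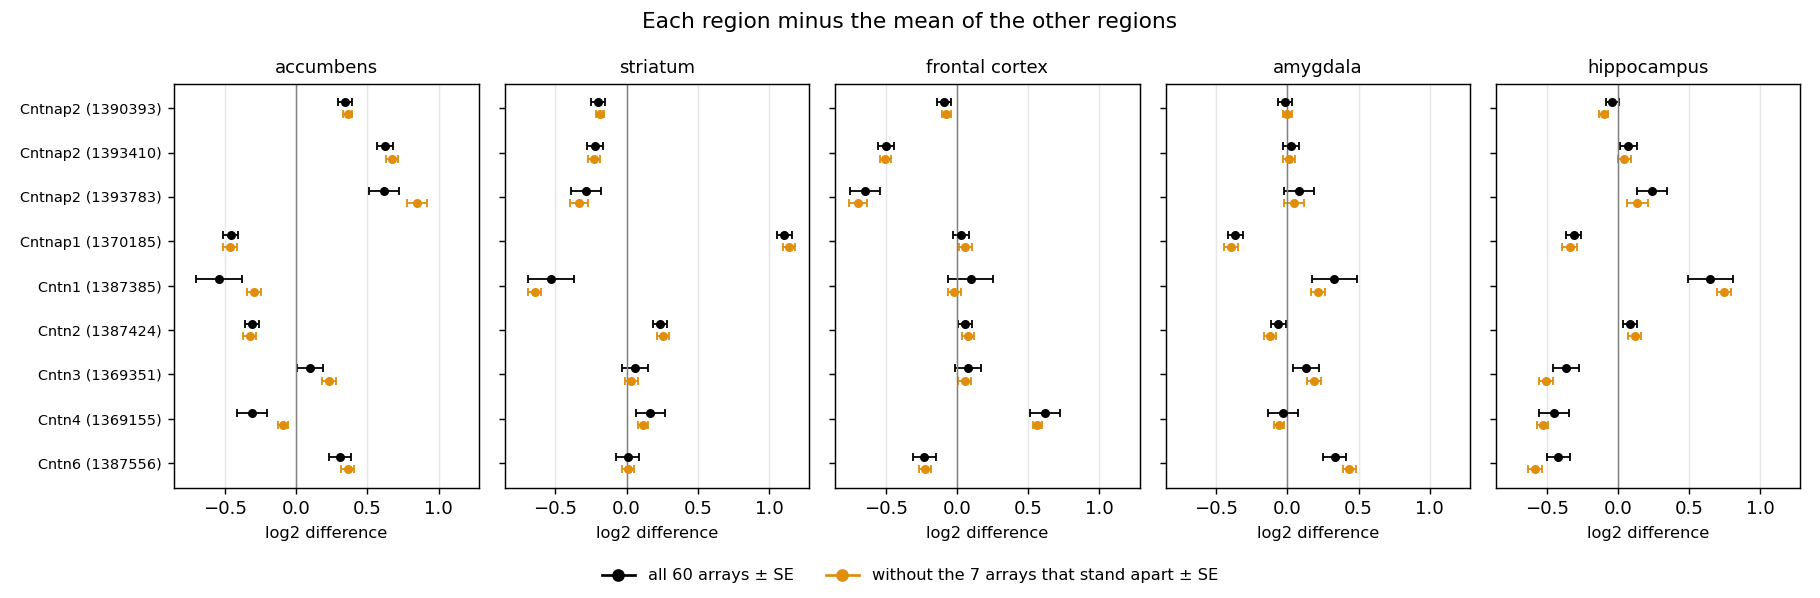
Log2 difference of each region from the mean of the other 4 (horizontal axes) for the 9 probe sets tested (rows), with bars of 1 SE. Black points use all 60 arrays and orange points leave out the 7 arrays that stand apart. The striatum difference of Cntnap1, 1.11, is the largest, and the accumbens points of Cntn1 and Cntn4 lie nearer 0 without the 7 arrays.

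For each main probe set, the 3 genes outside the family with the highest Pearson r over the 60 arrays were taken. Cntnap2 was nearest to Atxn3 (r = 0.78), Col11a1 (0.76) and Cep41 (0.74), and over the 53 arrays these coefficients were 0.68, 0.75 and 0.69. Cntnap1 was nearest to Mapk4 (0.94), Atp6v0a1 (0.93), a subunit of the vacuolar proton pump, and Mrpl38 (0.93), a mitochondrial ribosomal protein. Cntn1 was nearest to Grm7 (0.94), a metabotropic glutamate receptor, Stip1 (0.94) and Psmd8 (0.94), but over 53 arrays these coefficients were 0.84, 0.88 and 0.83. Cntn2 was nearest to Kctd17 (0.77), Ubl7 (0.74) and Zfp653 (0.74), and Cntn3 to Alcam (0.82), an immunoglobulin adhesion gene, Prkacb (0.81) and Gucy1a1 (0.79). Cntn4 was nearest to Sgtb (0.93), Rab11fip4 (0.90) and Slc39a10 (0.89), with 0.84, 0.82 and 0.88 over 53 arrays. Cntn6 was nearest to Unc13c (0.90), a synaptic vesicle priming gene, Klhdc8a (0.90) and Meis1 (0.89), a homeobox gene. For Cntnap1, Cntn2, Cntn3 and Cntn6 the coefficients over 53 arrays lay between 0.75 and 0.94. The arrays share 5 regions and 12 rats, and the coefficients are a description.

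Among the genes of axon-glia junctions and the axonal scaffold, 24 of 28 listed were measured. The F test over regions was passed by 23 of the 24, against 93.3% of all probe sets. In the striatum 12 were higher and 3 lower than in the other regions, against 26.3% and 43.3% of all probe sets called higher and lower. In this list and those of the next paragraph, the 3 genes named were picked for the widest spans of their region means. Tests on those same means are no independent support for them. Scn4b, a sodium channel beta subunit, had the widest span of the region means, 3.11, and was higher in the striatum by 2.12 (adjusted p = 1.50e-12 in limma). Kcnab1, a potassium channel beta subunit, spanned 1.37 and was higher in the striatum by 0.87 (adjusted p = 1.27e-13). Kcnab2, the beta subunit that joins the channels gathered by Cntnap2, spanned 1.24 and was higher in the hippocampus by 0.69 (adjusted p = 9.32e-08) and lower in the accumbens by -0.85 (adjusted p = 3.48e-10). In the accumbens, 13 of the 24 were lower and 4 higher, against 38.9% and 23.5% of all probe sets.

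Of 17 listed binding partners of contactins, 14 were measured and 14 passed the F test, against 93.3% of all probe sets. In the accumbens 11 of them were lower and 1 was higher, against 38.9% and 23.5% of all probe sets. The one that was higher there was Ptprz1, a receptor phosphatase that binds contactin-1 (0.44, adjusted p = 5.96e-14), which was lower in the striatum by -0.55 (adjusted p = 1.88e-17). Adgrl1, a latrophilin, was lower in the accumbens by -0.61 (adjusted p = 1.17e-12) and higher in the striatum by 0.67 (adjusted p = 2.48e-14). Aplp1, of the amyloid precursor family, was lower in the accumbens by -0.48 (adjusted p = 8.45e-12) and higher in the striatum by 0.53 (adjusted p = 2.84e-13). Of 27 other neurexin-type and immunoglobulin adhesion genes, 14 were measured and 13 passed the F test, again against 93.3% of all probe sets. The widest spans in that list were those of Ntm (0.90), Dscam (0.87) and Ncam2 (0.84), all highest in the frontal cortex, by 0.61, 0.50 and 0.56 (adjusted p = 1.47e-10, 1.32e-11 and 1.99e-08).

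The lines were compared on each rat's mean over its 5 regions. For the brightest Cntnap2 probe set the congenic rats ran between 11.04 and 11.26 with a median of 11.11, and the NP rats between 11.24 and 11.33 with a median of 11.25. Congenic rats lay below NP rats apart from congenic rat 9, at 11.26, whose accumbens array is among the 7. The means were 11.12 ± 0.07 in congenic rats and 11.27 ± 0.04 in NP rats (SD, n = 6 each), a difference of -0.15 ± 0.03 (SE) or 1.11-fold lower. It was -0.16 ± 0.02 without the 7 arrays.

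The other Cntnap2 probe sets differed less, by -0.05 ± 0.04 on 1393410_at and -0.04 ± 0.05 on 1393783_at, and by -0.08 ± 0.03 and 0.01 ± 0.06 without the 7 arrays. Congenic and NP rats overlapped on both. On the mean over regions, the difference of the brightest probe set was thus not matched in size on the others.

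By region, the brightest Cntnap2 probe set differed most in the frontal cortex, where none of the 7 arrays lies. The congenic frontal cortex arrays ran between 10.80 and 11.10 with a median of 11.01, and the NP arrays between 11.17 and 11.36 with a median of 11.25. The lines did not overlap there, as for 0.376% of all probe sets, and differed by -0.27 ± 0.05. In the amygdala the congenic arrays ran between 10.92 and 11.18 and the NP arrays between 11.19 and 11.39, again without overlap (0.462% of all probe sets). The differences were -0.20 ± 0.06 in the amygdala, -0.17 ± 0.08 in the hippocampus, -0.10 ± 0.06 in the striatum and 0.01 ± 0.13 in the accumbens. Without the 7 arrays they were -0.15 ± 0.05 in the amygdala, -0.10 ± 0.05 in the hippocampus and -0.18 ± 0.05 in the accumbens, so that congenic rats were lower in 5 of 5 regions. With all arrays, probe set 1393410_at differed by -0.24 ± 0.06 in the amygdala, wider than the brightest, and -0.15 ± 0.06 in the frontal cortex. It differed by -0.08 ± 0.09 in the hippocampus, 0.0034 ± 0.08 in the striatum and 0.20 ± 0.14 in the accumbens. Probe set 1393783_at ran between -0.15 ± 0.12 in the frontal cortex and 0.12 ± 0.12 in the striatum. On both, congenic rats were lower in 3 of 5 regions, with and without the 7 arrays. Since the set was chosen with this contrast known, nothing is read from these counts.

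Among the contactins, the line means over regions differed by -0.14 ± 0.10 for Cntn1, -0.10 ± 0.04 for Cntn3, -0.08 ± 0.06 for Cntn4, -0.03 ± 0.03 for Cntn2 and 0.02 ± 0.03 for Cntn6. Cntnap1 differed by 0.03 ± 0.04. Congenic and NP rats overlapped on each of them. The values of Cntn1 and Cntn4 rest on the accumbens array of congenic rat 9, and without the 7 arrays they were -0.03 ± 0.04 and 0.02 ± 0.04. The largest remaining regional value was that of Cntn3 in the amygdala. Its congenic amygdala arrays ran between 8.28 and 9.23 and its NP arrays between 9.13 and 9.56, a difference of -0.43 ± 0.14, or -0.31 ± 0.10 without the 7 arrays.

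Over the rats' means, the median line difference of the 9 probe sets was -0.05, beside -0.0020 for all probe sets tested, and 7 of the 9 were lower in congenic rats, beside 52.2% of all. Without the 7 arrays the median of the 9 was -0.03, and 5 of the 9 were lower, beside 51.2% of all. Nothing is read from these counts either. Of 9 marker lists, the widest gap between the lines was that of the thalamus and hypothalamus markers, at 8.65 ± 0.19 in congenic rats and 8.49 ± 0.25 in NP rats (SD, n = 6 each). Choroid plexus markers averaged 10.12 ± 0.47 in congenic rats and 10.24 ± 0.42 in NP rats, and medium spiny neuron markers 10.68 ± 0.07 in congenic rats and 10.78 ± 0.10 in NP rats. Oligodendrocyte and myelin markers averaged 12.33 ± 0.08 in congenic rats and 12.36 ± 0.14 in NP rats, and the lines' means on the remaining 5 lists differed by no more than 0.05. The first 3 of these gaps were 0.16, -0.12 and -0.10, beside -0.15 for the brightest Cntnap2 probe set, and their part in that value was not tested.

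**Figure D4:**
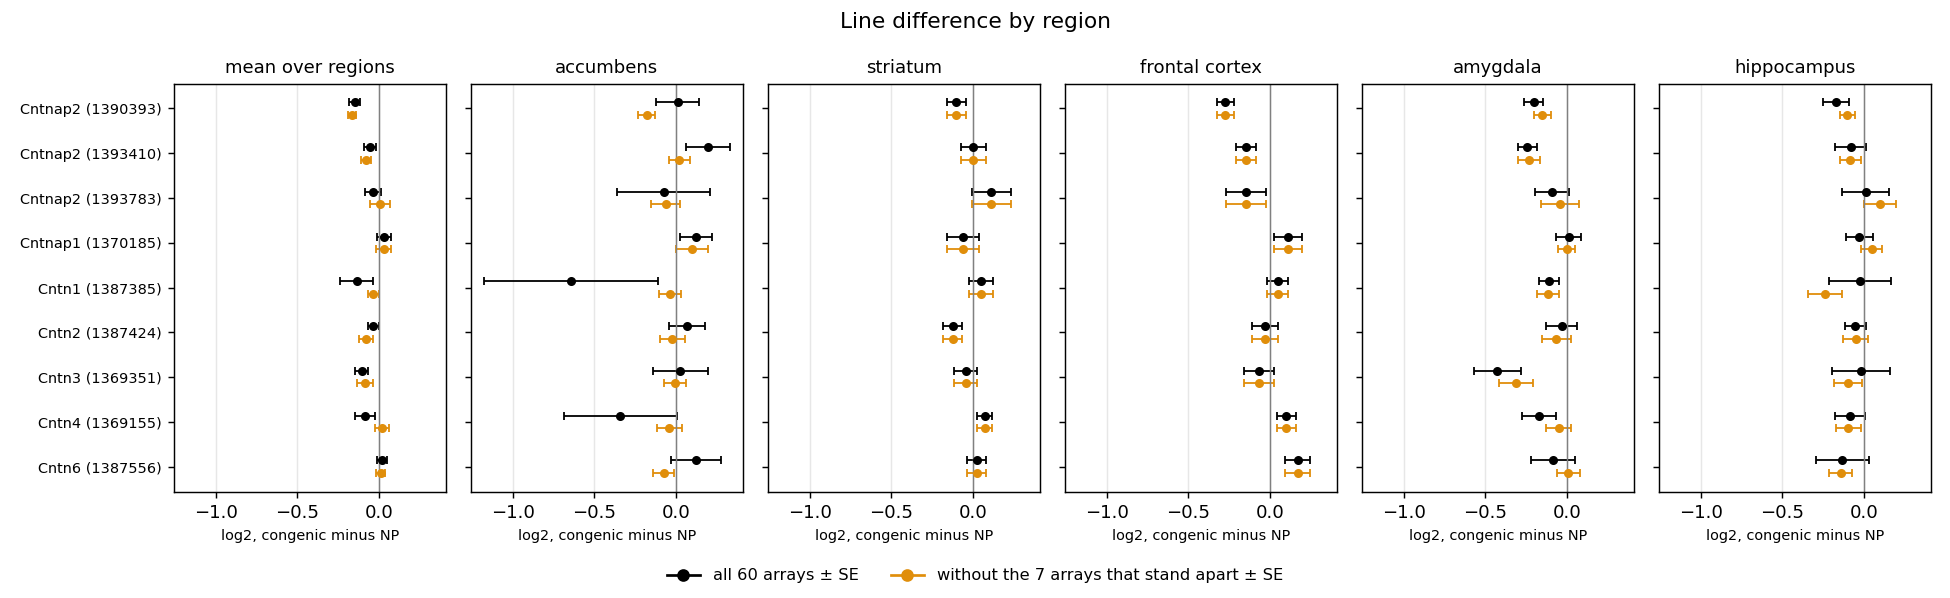
Log2 difference of congenic minus NP rats (horizontal axes) for the 9 probe sets tested (rows), over regions and in each region, with bars of 1 SE. Black points use all 60 arrays and orange points leave out the 7 arrays that stand apart. The brightest Cntnap2 probe set lies at -0.27 in the frontal cortex, and the black accumbens points of Cntn1 (-0.65) and Cntn4 (-0.34) have wide bars.

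Whether line differences varied between regions was tested in limma over all probe sets, with the rat as a block. The interaction was called for 0% of them with all arrays, where 726 had an unadjusted p under 0.05, and for 0.0107% over the 53 arrays. No test of the members is given, since their line difference led to the choice of the set.

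Cntnap2, Cntn3, Cntn6 and Cntn4 lie on chromosome 4, where 590 genes were measured and 13 had a probe set called between the lines over regions. Of all probe sets tested, 0.123% were called, a share that counts single probe sets and not genes. Cntnap2 is number 189 in the gene order of GRCr8, between the called genes Dgki (160) and Pdia4 (191). Of its 3 nearest measured genes on each side, Pdia4, a chaperone of the endoplasmic reticulum, was higher in congenic rats by 0.21 ± 0.04 (adjusted p = 0.0482 in limma). Fam131b (-0.03), Zyx (0.02), Tcaf1 (0.01), Cul1 (-0.02) and Zfp282 (0.04) did not pass the test, at adjusted p between 0.926 and 0.985. The contactins sit farther along, Cntn3 at 395, Cntn6 at 397 and Cntn4 at 398, past the last called gene, Magi1 at 379. Their nearest measured genes on the side of the called ones, Rybp, Ppp4r2 and Pdzrn3, differed by 0.02, -0.00098 and 0.06. Chl1, a cell adhesion gene of the L1 family, differed by -0.04, and Crbn, Setmar and Sumf1 by -0.02, -0.02 and -0.04, and none of these was called.

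**Figure D5:**
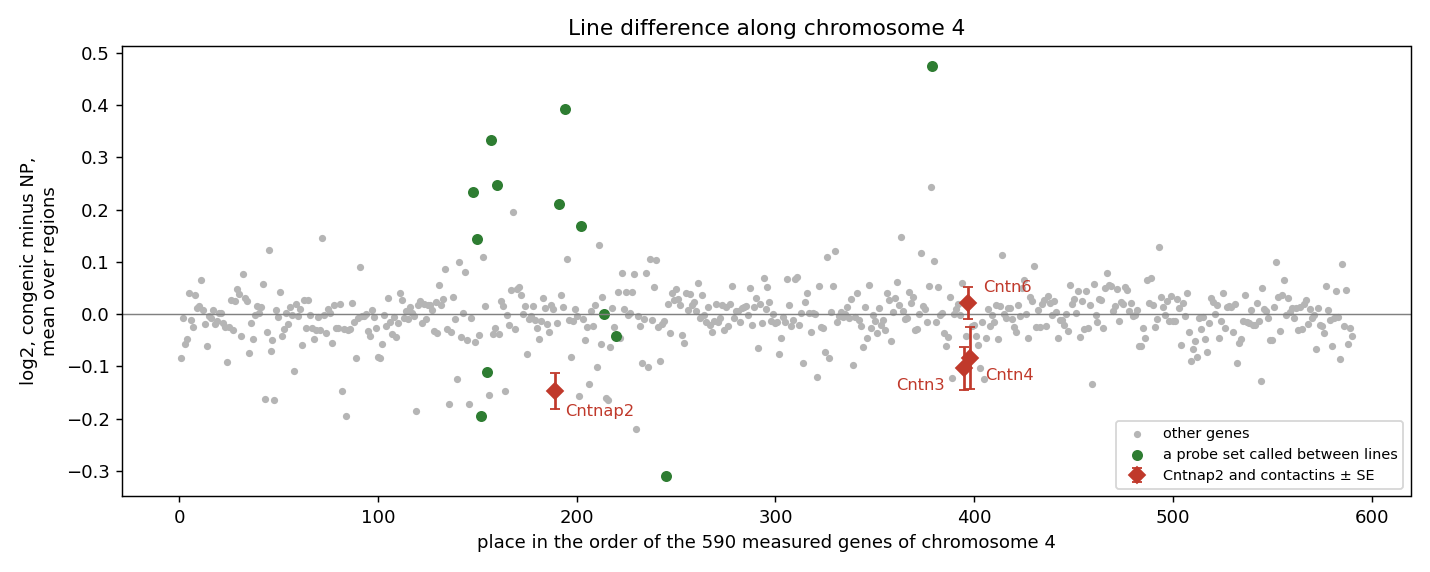
Log2 difference of congenic minus NP rats over regions (vertical axis) against the place of each of 590 measured genes along chromosome 4 (horizontal axis). Green points are the 13 genes with a called probe set, shown at their brightest probe set, and red diamonds with bars of 1 SE are Cntnap2 and the 3 contactins. Cntnap2, at place 189, lies between called genes, and the contactins, at 395 to 398, lie past the last of them.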

How the data were processed

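The deposited values are log2 signals of 31099 probe sets on 60 arrays, and the authors' summary, background correction and normalization are not given in the sources used here. Per the labels' protocols, the RNA of different rats was never pooled. Values lie between 4.58 and 16.01, array medians between 8.23 and 8.35, and arrays were not at equal quantiles. Read depth does not apply to arrays, and the number of rats sets the precision.

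Genes were named from the platform annotation, which gives 1 symbol for 20826 probe sets, several for 436 and no entry for 9780. The 57 control probe sets were left out, and the 18625 probe sets at or above the 40th percentile of mean signal (7.68) were kept. R 4.3.3, limma 3.58.1, data.table (version 1.17.8), Python 3.11.15, matplotlib 3.10.9, numpy and pandas were used. Lines were compared in limma on each rat's mean over regions and in each region. Regions, and the interaction of line and region, were fitted with the rat as a block. Tests were 2-sided, with Benjamini-Hochberg adjustment over all kept probe sets, and called at an adjusted p under 0.05. Without some arrays, each region was centred on the midpoint of its line means before rats were averaged.

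Members, gene lists and named genes were chosen with earlier results of these data known. Named genes were all members, the 3 genes of widest region span and any called genes in each list, the 3 genes most correlated with each member, and the 3 measured genes on each side of members on chromosome 4. The main probe set of a gene is its brightest. Marker levels are means of log2 values. An array stood apart at a median correlation under 0.98 with its region or a profile correlation under 0.5. Same-numbered arrays come from the same rat, per the labels, and so pair regions and not lines. Deviations from the group mean had an average correlation of 0.0139 in 120 pairs of 1 rat and -0.0063 in 600 pairs of different rats. The fits were tested on simulated data. Cntnap2 and Cntnap1 have no promoter shown here.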

Additional observations from a re-analysis of the deposited data

Results flagged for a closer look

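In groups of 6 values, 27 of 120 tested had a highest or lowest sample that stood far from the others, where chance gives about 1 in 20 groups. Arrays of the 7 that stand apart gave 17 of them. The groups are not independent, since the same arrays recur over the probe sets and in the rats' means over regions. The count is therefore a description and no test against that rate.

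Among the congenic accumbens arrays, that of rat 9 had the highest value of Cntnap2 probe set 1390393_at (11.98, others 11.30 to 11.42). The same array had the lowest congenic accumbens values of probe set 1393783_at (7.49, others 8.62 to 9.08), Cntn1 (6.85, others 10.20 to 10.54), Cntn3 (8.61), Cntn4 (8.15, others 10.29 to 10.48) and Cntn5 (6.78). Its mean over regions was the highest of the congenic rats for Cntnap2 probe set 1390393_at (11.26) and the lowest for Cntn1 (9.96) and Cntn4 (10.07).

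Among the NP accumbens arrays, that of rat 8 had the lowest values of all 3 Cntnap2 probe sets (11.01, 9.27 and 7.63), of Cntn3 (8.41) and of Cntn6 (7.48). In the hippocampus the same rat had the highest Cntn6 value of the NP rats (8.39).

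Congenic rat 3 had the highest amygdala value of Cntnap1 (10.28) and the lowest of Cntn4 (9.91) and Cntn6 (7.60) among congenic rats, and in the hippocampus the highest congenic Cntn6 value (8.25). NP rat 11 had the highest NP hippocampus value of Cntnap1 (10.42).

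Arrays that do not stand apart also lay far from the others of their line and region. The striatum array of congenic rat 4 was lowest for 2 Cntnap2 probe sets, 1393410_at (9.02) and 1393783_at (7.31), and for Cntn3 (8.74). The striatum array of NP rat 7 was lowest for Cntnap2 probe set 1393783_at (7.60) and for Cntn6 (7.84). The frontal cortex of congenic rat 2 was highest for Cntnap1 (10.78), and the accumbens of NP rat 5 for Cntn2 (8.36).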

How the results depend on the processing

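Settings tried were quantile normalization, no filter, a filter at the 60th percentile, leaving out the 7 arrays or each rat, and other blocks. None turned a tested region difference round. Without the filter, 2 probe sets were called between the lines in the hippocampus and 27562 in the F test over regions. With the 60th percentile, which leaves 6 probe sets of members, calls between the lines were 11 over regions, 2 in the amygdala and 6 in the frontal cortex. Summed over single regions there were 19. Of the 6 probe sets, 5 were called against other regions in the accumbens, 1 in the amygdala and 2 in the frontal cortex. The share of all probe sets called there was not counted in this setting, so these counts are a description. Without the 7 arrays, 8, 18 and 7 probe sets were called between the lines in the accumbens, amygdala and hippocampus, and 55 summed over single regions. Of the 9 probe sets of members, 5 were then called in the amygdala against other regions, beside 62.8% of all probe sets. The interaction was called for 2 probe sets. Without 1 rat at a time, probe sets called between the lines over regions ranged between 17 and 30, and the Cntnap2 difference between -0.17 and -0.13. In single regions those calls ranged between 1 and 8 (accumbens, 8 without rat 9), 4 and 14 (amygdala, 14 without rat 3), 8 and 11 (frontal cortex), 1 and 5 (hippocampus, 3 without rat 3 and 5 without rat 11) and 9 and 13 (striatum), and summed over regions between 24 and 35. Probe sets of members called against other regions ranged between 7 and 8 in the accumbens, 2 and 3 in the amygdala and 4 and 5 in the frontal cortex. They ranged between 5 and 6 in the hippocampus and 6 and 7 in the striatum. The shares of all probe sets called there were not counted without 1 rat at a time, so these ranges are a description. The F test over regions called 9 probe sets of members each time, and between 17099 and 17803 of all 18625 probe sets. With no replicate block, dropping the pairing of regions by rat, 9 probe sets of members were again called in the F test. In that setting 25 tests kept their side of the threshold, and 8 counts stayed close to the main counts. A block of rats 1 to 8 and 9 to 12 left the Cntnap2 difference at -0.15. Dim signal limits Cntn5, which was not tested. For losses of calls named here and in the results, the cause was not tested.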
